A study of Mus musculus with 2 samples.

Results

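Hepatocyte4 is 1 of 5 hepatocyte clusters of mouse liver, named here for its gluconeogenic genes. Its members are the genes that the authors' deposited table of hepatocyte markers lists for it, 880 of 1609 genes, or 54.7% of the genes in that table, and this is the share beside which the counts of listed genes below are to be read. A second deposited table, which sets each cluster against all other cells of the liver preparation, lists 443 of its 1755 genes for Hepatocyte4, or 25.2%. Of these, 385 are in both lists, so the tables name 938 genes together. Single-cell RNA-seq was performed on primary hepatocytes of wild-type BALB/c mice, male and 8 to 10 weeks old by the study's methods and fasted before isolation. Mice were injected intraperitoneally each day for 5 days with PBS or with 0.5 µg of recombinant IL-33, and 1 library was made for each condition, 2 in all. Both libraries are pooled in the tables, so no value per library, SD, n or comparison between PBS and IL-33 is given, and no test was run.

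For each listed gene, the tables hold the percentage of cells in which the gene was detected (a value above 0), inside the cluster and in the remaining cells. These shares are the measurement used below, in percent, and a difference between them is in percentage points. The cells were clustered on the same genes, so a higher share in Hepatocyte4 describes the cluster and is not evidence for it. The number of cells and the depth of each cell are not in the tables, and a share rises with depth. A gene that is not listed may have missed a limit of the authors' search, such as a share of at least 25% in 1 of the 2 sets of cells. Its absence does not show that it was not expressed. The smallest larger share among the 880 genes was 25%, for Acly, Arhgef26, Slc25a32 and Slc8b1.

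Hepatocytes make glucose in fasting from lactate, glycerol and amino acids. Pyruvate carboxylase and phosphoenolpyruvate carboxykinase bypass the last step of glycolysis, and glucose-6-phosphatase, which faces the lumen of the endoplasmic reticulum (ER), releases free glucose. The same cells secrete most plasma proteins, which are folded in the ER by chaperones such as BiP, and clear drugs and steroids with cytochrome P450 enzymes of the ER membrane. Enzymes for periportal and pericentral tasks are divided along the liver lobule.

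All 7 genes given as markers of Hepatocyte4 were listed for it in both tables. They were chosen with earlier results of these data known, so their listing is not a result of its own. Hspa5, which encodes BiP (chromosome 2 of GRCm38, 34771970 to 34777547, 9 exons), was detected in 88.0% of Hepatocyte4 cells but 22.6% of hepatocytes outside it, the largest difference of the 880 genes at 65.4 points. Cp, which encodes the copper carrier ceruloplasmin (chromosome 3, 19957054 to 20009145, 20 exons), was detected in 94.0% and 29.3%. G6pc, the catalytic subunit of glucose-6-phosphatase (chromosome 11, 101367561 to 101377903, 5 exons), was detected in 75.5% and 13.6%, and C9, a subunit of the complement pore (chromosome 15, 6445327 to 6498751, 11 exons), in 86.7% and 24.9%. These 4 genes ranked 1, 2, 5 and 6 by difference. Cyp2f2, a periportal cytochrome P450 (chromosome 7, 27119909 to 27133660, 10 exons), was detected in 76.2% and 26.0%. Cyp4a10, a fatty acid hydroxylase (chromosome 4, 115518264 to 115533649, 13 exons), was detected in 98.2% and 54.0%. Pck1, which encodes cytosolic phosphoenolpyruvate carboxykinase (chromosome 2, 173153048 to 173159273, 10 exons), was detected in nearly all cells of the cluster (99.2%) but also in 82.5% of the other hepatocytes. Its difference of 16.7 points ranked 868 of 880. The share of Pck1 outside the cluster left little room for a difference, so G6pc and Pck1 are not comparable by this measure. Of the 7 markers, 6 were also listed for Hepatocyte5, with G6pc in 96.0% and Cyp2f2 in 70.9% of its cells. G6pc thus set Hepatocyte4 apart from most other hepatocytes but not from Hepatocyte5.

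Markers of other cell types were checked with lists for Kupffer, endothelial, stellate, B, T and NK, neutrophil, erythroid and bile duct cells. Of these 68 genes, 47 were in the table of all cells and 0 were listed there for Hepatocyte4, and 0 were in the hepatocyte table. The cells set against Hepatocyte4 in the table of all cells include most of these cell types, which works against a listing for Hepatocyte4. The absence of these genes from the lists therefore does not show that Hepatocyte4 cells lacked their transcripts. Alb, the albumin gene, was detected in 100% of cells both inside and outside the cluster. This also held against all other cells of the preparation (100%), non-hepatocytes included, so detection of Alb does not mark a hepatocyte here.

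Hepatocyte4 held an estimated 18.1% of the hepatocytes. This share was solved from the 486 genes listed for more than 1 cluster, since the overall share of cells with a gene must come out the same from each of its rows. Hepatocyte1, Hepatocyte2 and Hepatocyte3 held 55.6%, 14.9% and 10.1%, and Hepatocyte5 held 1.47%. With these sizes, the share in Hepatocyte1 to Hepatocyte3 together could be solved for genes listed for both Hepatocyte4 and Hepatocyte5. For G6pc it was 12.1% (12 to 12.2% over rounding and all fits), for Hspa5 21.2% and for Cp 28%.

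Shares in Hepatocyte4 ranged from 25 to 100%, with a median of 42.9% against 8.7% in the other hepatocytes. The share was higher in Hepatocyte4 for 878 of 880 genes, and the median difference was 33.1 points (quartiles 25.4 and 42.4). The 2 genes without a higher share were Alb and Mup9, a major urinary protein gene found in 42.6% of the cluster but 45.0% of the rest. In the other hepatocytes, 772 of the 880 genes were detected in under 25% of cells. Mup9 belongs to a family of near-identical genes, whose reads may be divided between copies, so its value is uncertain. The other genes with the smallest differences were Mup3 (99.5% and 95.0%), Serpina3k (100% and 94.2%) and Mat1a (99.8% and 94.0%), all of which were detected in most hepatocytes outside the cluster too. In contrast to Hepatocyte4, 160 of the 170 genes listed for Hepatocyte1 had a lower share in that cluster than outside it.

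**Figure D1:**
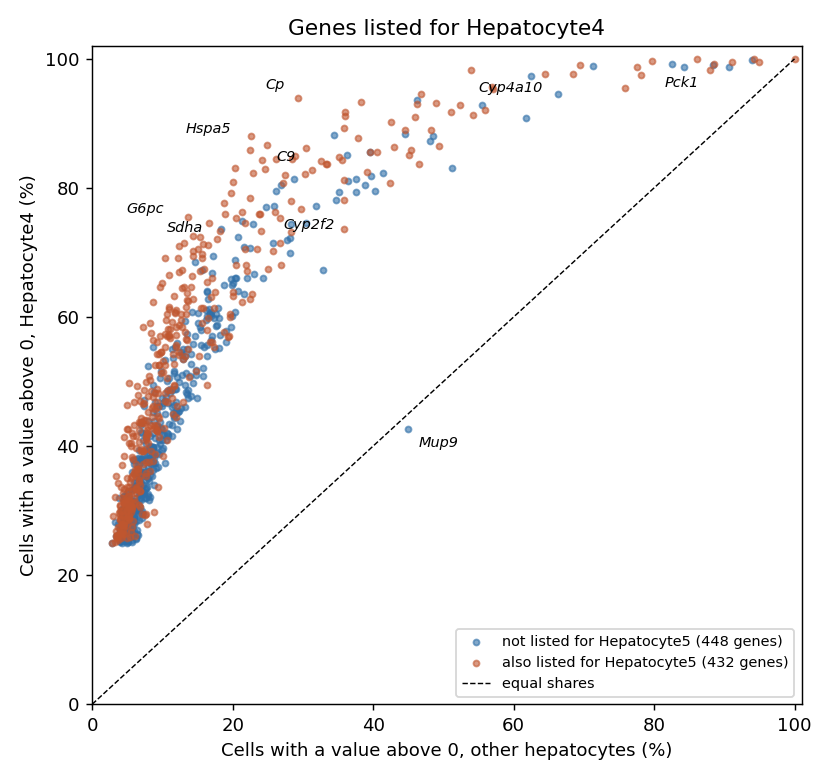
Detection in Hepatocyte4 (y axis, % of cells above 0) against detection in all other hepatocytes (x axis, %), 1 point per listed gene, with the dashed line at equal shares. The points lie above the line for 878 of 880 genes, with G6pc at 75.5% and 13.6%, Pck1 at the upper right end and Mup9 below the line.

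To compare the 2 shares of a gene by 1 number, each share p was converted to −ln(1 − p), which would be the mean count per cell if counts followed a Poisson distribution, and the value in Hepatocyte4 was divided by that in the other hepatocytes. This detection ratio was chosen after the data were seen. It had a median of 5.96 over 878 genes (quartiles 5.01 and 7.07), and 836 genes (95.2%) lay between 3 and 10. The listing limits these values from below: a gene that few other hepatocytes express is listed for Hepatocyte4 only with a share of at least 25% there, so its ratio had to be high, and neither the median nor the order of the ratios is a result of its own. G6pc had 9.62 and ranked 27. Other genes near the top encode proteins of the lysosome, the ER membrane and the cell surface: Tpp1, a lysosomal peptidase, had 12.7, Sel1l, a part of ER-associated degradation, 12.2, and Slc38a2, an amino acid carrier, 11.8. Hspa5 had 8.28 and Cp 8.11. Hnf4a had 4.90 and Pcx 4.48, both below the median, and Pck1 had 2.77 and ranked 864. The limit does not act on a gene such as Pck1, which most other hepatocytes express, so its ratio is not comparable with those of rare genes. Depth per cell was not analysed, and its part in the ratios was not tested.

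Of the 880 genes, 432 (49.1%) were also listed for Hepatocyte5, 448 were not, and 442 were listed for Hepatocyte5 and not Hepatocyte4. Hepatocyte5 listed 874 genes, or 54.3% of the table, so the size of the overlap (49.4% of the Hepatocyte5 list) was near that share and is not a result about these genes. Which genes were in it is described below, beside the 49.1%. Overlap with the other clusters was 0 of the 170 genes of Hepatocyte1, 1 of the 56 of Hepatocyte2 (Serpina1a) and 5 of the 123 of Hepatocyte3 (Crot, St13, Sod1, Arg1 and Mat1a). The share of all genes of the table listed for Hepatocyte4 was 54.7%. Each cluster was set against a rest that held the others, which works against a joint listing with a large cluster such as Hepatocyte1. These counts are therefore not read as a result about the genes. Among the 432 genes, the share was higher in Hepatocyte5 than in Hepatocyte4 for 427, and the median gap over the 432 was 21.9 points. The median over genes was 76.2% in Hepatocyte5, 48.7% in Hepatocyte4 and 8.22% in Hepatocyte1 to Hepatocyte3. These genes had to be listed for Hepatocyte5 against a rest that included Hepatocyte4, which favours a high share in Hepatocyte5. Their lowest share there was 39.7%, against 25% in Hepatocyte4. The other 448 genes have no Hepatocyte5 share, so the count of 427 is not a result about the clusters. Among the 432 genes, the share in Hepatocyte4 was the higher one for Cyp2f2 (76.2% against 70.9%), Cps1 (99.0% against 98.0%) and Cyp3a11 (97.5% against 97.4%). Shares were equal for Alb and Serpina3k. Hepatocyte5 held an estimated 1.47% of the hepatocytes and no counting interval was computed, so the gaps of Cps1 and Cyp3a11 are not read as differences. The 2 lists of genes were compared by listing alone, which is not a test of a difference between the clusters.

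The gene products differed between the shared and the unshared genes of Hepatocyte4. Each gene was assigned by hand, after the list was seen, to 1 of 15 functions, or left unassigned, and to the place of its protein in the cell. Of the 387 genes whose proteins enter the secretory pathway (secreted, or in the ER, Golgi, lysosome or plasma membrane), 339 (87.6%) were also listed for Hepatocyte5. Of the 372 genes for proteins of the cytosol or nucleus, 61 (16.4%) were, as were 22 of 81 for mitochondrial proteins and 2 of 15 for peroxisomal proteins. The other 25 genes were 22 with no assignment and 3 whose names are stored as dates in the table. Expressed the other way, 339 of 432 shared genes (78.5%) but 48 of the 448 genes not listed for Hepatocyte5 (10.7%) were secretory. The contrast held over the range of detection: in 5 steps of the share over all hepatocytes, 80.4 to 93.9% of secretory genes and 0 to 18.3% of genes for the cytosol or nucleus were also listed for Hepatocyte5.

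The same contrast was seen in a property computed from sequence. Coding sequences of the mouse annotation were translated, and a protein was counted when a window of 19 residues, about the length of a membrane span, had a mean hydropathy of at least 1.6 on the Kyte-Doolittle scale. This property was also chosen after the lists were seen. Of the genes listed for both clusters, 324 of 428 (75.7%) had such a stretch, compared with 110 of 445 (24.7%) of those listed for Hepatocyte4 and not Hepatocyte5. Genes listed for Hepatocyte5 and not Hepatocyte4 were like the first group (301 of 438, 68.7%). Over all 21924 protein-coding genes the figure was 42.6%, and it was 28.1%, 21.8% and 6.50% for the genes of Hepatocyte1, Hepatocyte2 and Hepatocyte3. Proteins that end in an ER retrieval signal (KDEL and close variants), which keeps soluble proteins in the ER, were encoded by 8 shared genes (Calr, Hsp90b1, Hspa5, P4hb, Pdia4, Pdia6, Prkcsh and Txndc5). Such proteins were encoded by 0 of the Hepatocyte4 genes not listed for Hepatocyte5 and by 4 genes listed for Hepatocyte5 and not Hepatocyte4 (Colgalt1, Edem3, Erp44 and Pdia5). The whole annotation held 43 such genes.

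**Figure D2:**
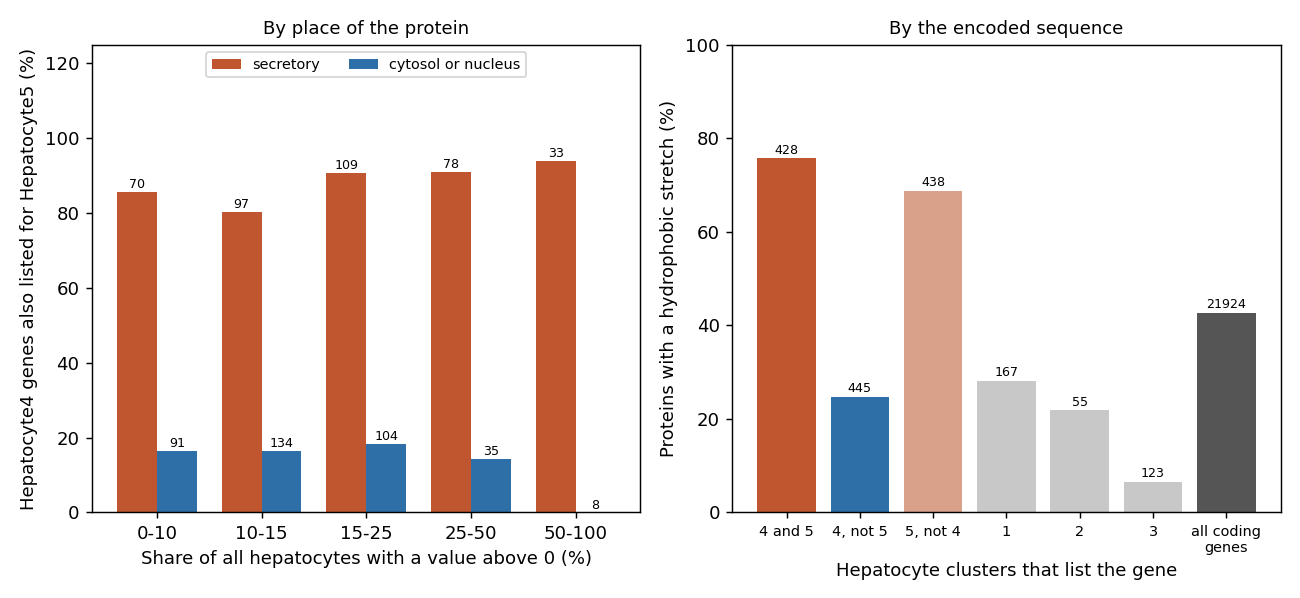
Left, percentage of Hepatocyte4 genes also listed for Hepatocyte5 (y axis) in steps of the share of all hepatocytes with the gene (x axis, %), for secretory proteins and for proteins of the cytosol or nucleus, where 0 of 8 genes in the last step were listed. Right, percentage of genes whose protein has a hydrophobic stretch (y axis) by the clusters that list them (x axis), with the number of genes above each bar: 75.7% for Hepatocyte4 and Hepatocyte5, 24.7% for Hepatocyte4 and not Hepatocyte5.

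Of 28 chaperones and folding enzymes of the ER in the hepatocyte table, 18 were listed for Hepatocyte4 (64.3%, with 54.7% for all genes of the table). Of these, 16 were also listed for Hepatocyte5, as were 8 that Hepatocyte4 did not list, so the class was not particular to Hepatocyte4. The median difference of the 18 genes was 45.0 points, compared with 33.1 for all listed genes. Hsp90b1, the ER form of HSP90, was found in 84.3% of Hepatocyte4 and 24.2% of the remaining hepatocytes. The lectin chaperones Calr and Canx were detected in 79.2% and 70.5% of the cluster, and in 19.8% and 15% of the others. Xbp1, a transcription factor of the unfolded protein response, was detected in 52.7% and 11.6%. Several promoters of these genes share a known sequence, the ER stress element, which joins a CCAAT box to CCACG across 9 bases and is bound by the factor ATF6 with NF-Y. It was searched on both strands in windows of 300 bases (250 before and 50 after each start in RefSeq, GRCm38.p6). Of the 18 windows for the listed ER chaperones, which matched 16 of the 18 genes, 6 held it (33.3%), compared with 39 of all 32851 windows (0.119%). Over the whole list of ER chaperones, listed for a cluster or not, 8 of 38 windows held it (21.1%). The 6 genes were Calr, Canx, Dnajc3, Hsp90b1, Hspa5 and Pdia6, all of which were also listed for Hepatocyte5. Among the other listed genes it was found once, in the window of Hnrnpa3. The elements are shown because they recur in the group that holds Hspa5, Hsp90b1 and Calr, 3 of the 10 genes with the largest differences. Each is read along the strand of its gene with the whole element in capitals. In Calr and in the first of the pair in Hsp90b1 the element lies on the opposite strand, so it reads from CGTGG to ATTGG.
Hspa5, chr2:34772020-34772048, plus strand: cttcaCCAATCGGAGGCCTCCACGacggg
Hsp90b1, chr10:86705528-86705556, minus strand: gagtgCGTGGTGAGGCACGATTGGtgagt
Hsp90b1, chr10:86705633-86705661, minus strand: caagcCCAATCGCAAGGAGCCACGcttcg
Calr, chr8:84847070-84847098, minus strand: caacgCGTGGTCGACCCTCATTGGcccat
Canx, chr11:50325795-50325823, minus strand: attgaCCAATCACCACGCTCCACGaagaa
Dnajc3, chr14:118937822-118937850, plus strand: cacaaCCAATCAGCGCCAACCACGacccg
Pdia6, chr12:17266486-17266514, plus strand: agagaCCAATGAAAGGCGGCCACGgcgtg

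The other 7 motifs were searched in the same windows, 922 of which matched 698 of the 880 genes. The cyclic AMP response element TGACGTCA, through which fasting signals act on many liver genes, was found in 28 windows (3.04%, and 1.79% of all windows), and in 3.28% of the windows of genes in the hepatocyte table that were not listed for Hepatocyte4. Of the 25 genes that held it, 20 were not listed for Hepatocyte5, among them Ldha, Ogdh and Hlf, where 364 of all 698 matched genes were not. The D box TTATGTAA was found in 0.868% (0.938% of all) and the STAT site TTCC and GGAA 1 base apart in 1.41% (1.15%). The TATA box TATAAA was found in 10.7% (13.6%) and CCAAT, which is also the first part of the ER stress element, in 43.0% (37.4%). The HNF1 site (GTTAAT and ATTAAC 1 base apart) and the direct repeat of AGGTCA with 1 base between were found in 0 windows of listed genes. G6pc held a TATA box and a CCAAT box, Pck1 held none of the 8 motifs and Hnf4a held a CCAAT box, in these windows of 300 bases. A match to letters is not a bound site. The remaining genes of the ER, glycosylation and vesicle class, 111 in all, included Mia3 (63.3% and 11.7%) and Mia2 (61.4% and 17.3%), which help load large cargo into vesicles, and Sec62 (70.6% and 21.7%), a part of the protein channel. Of this class, 62 of 82 genes for proteins inside the secretory pathway but 3 of 29 for cytosolic parts of the traffic machinery, such as Rab1a (55.1% and 11.3%) and Rab10 (46.2% and 10.0%), were also listed for Hepatocyte5.

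Plasma proteins formed the most shared class: 83 of its 88 genes (94.3%) were also listed for Hepatocyte5, and their median share in Hepatocyte4 was 71.3%. Of the complement genes in the table, 16 of 22 were listed for Hepatocyte4 (72.7%, with 54.7% for all genes of the table). All 16 were also listed for Hepatocyte5, as were 6 that Hepatocyte4 did not list, so this was not particular to Hepatocyte4. Beside C9 the 16 were led by Cfhr2, related to complement factor H, at 86.2% and 30.5% of cells. C4bp, a C4-binding regulator, was at 75.4% and 20.5%. The pore subunit C8a was at 71.1% and 16.5%. Of 32 coagulation genes, 21 were listed (65.6%), with Plg, the plasmin precursor, at 89.3% and 35.8%, and the inhibitors Serpinf2 and Serpind1 at 64.7% and 61.2% of Hepatocyte4 cells. All 21 were also listed for Hepatocyte5, as were 11 coagulation genes that Hepatocyte4 did not list. Of 19 apolipoprotein genes, 10 were listed (52.6%, near the share of all genes), led by Apon (85.8% and 22.4%), and 5 of the remaining ones (Apoa2, Apoc1, Apoc2, Apoc4 and Apom) were listed for Hepatocyte1. The listing of acute phase genes was divided between the clusters. Of 25 in the table, 11 were listed for Hepatocyte4 (44%), including Crp (71.0% and 12.4%), Serpina3c (72.1% and 17.8%) and Itih3 (73.2% and 28.3%). Saa1, Saa2, Orm1, Hp and the iron hormone gene Hamp were not among them and were listed for Hepatocyte1. A listing for Hepatocyte1 does not mean a higher share there, since 160 of its 170 genes had a lower share inside that cluster than outside it. Igf1, the growth factor (82.3% and 41.4%), was 1 of the 5 plasma protein genes not listed for Hepatocyte5.

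**Figure D3:**
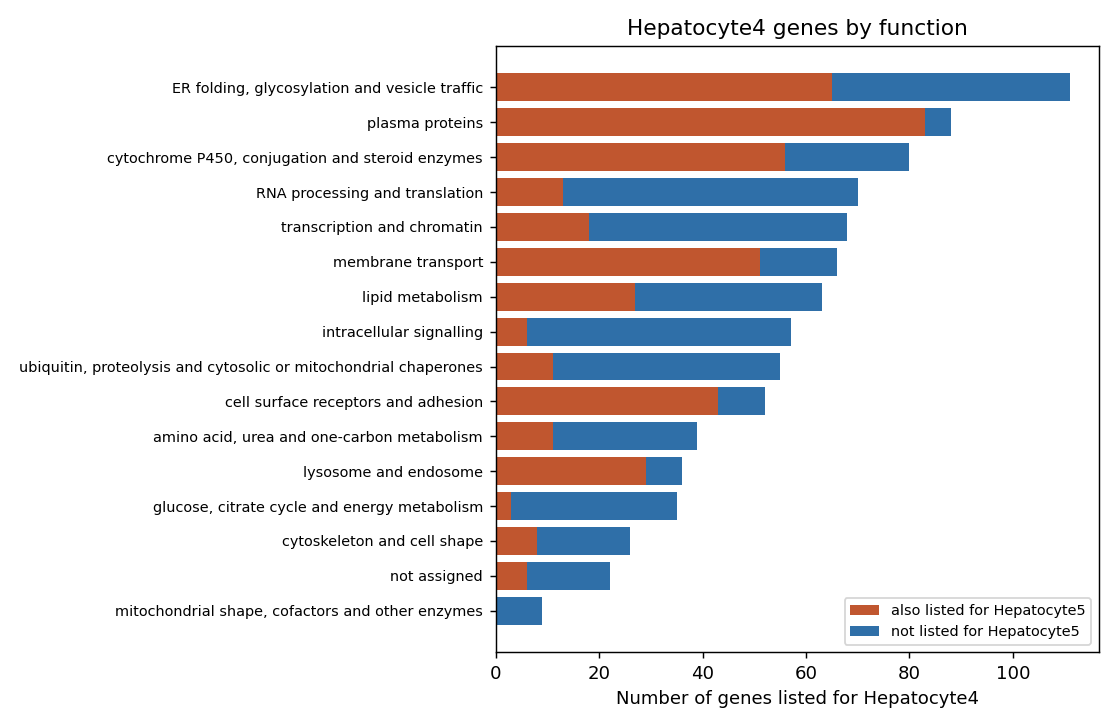
Number of genes listed for Hepatocyte4 in each function (x axis), divided by whether the gene was also listed for Hepatocyte5. Plasma proteins (83 of 88), surface receptors (43 of 52) and lysosomal genes (29 of 36) were mostly shared, while glucose and energy metabolism (3 of 35) and intracellular signalling (6 of 57) were mostly not.

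Glucose and energy metabolism was the reverse, with 3 of 35 genes also listed for Hepatocyte5. Of the 24 genes on the gluconeogenesis list, 13 were in the hepatocyte table and 10 were listed for Hepatocyte4 (76.9%). G6pc, its partner Slc37a4, the glucose-6-phosphate carrier of the ER (54.2% and 9.2%), and Pcx, pyruvate carboxylase (63.2% and 20.0%), were shared with Hepatocyte5, in which they were detected in 96.0%, 84.1% and 88.1% of cells. The other 7 were not listed for Hepatocyte5 and encode cytosolic, mitochondrial or nuclear proteins. Besides Pck1 they were Gpt2, mitochondrial alanine transaminase (67.3% and 15.7%), Gk, glycerol kinase (53.6% and 11.5%), Gpd1, glycerol-3-phosphate dehydrogenase (45.0% and 10.3%), Ldha, lactate dehydrogenase (88.1% and 48.5%), Slc25a13, the aspartate and glutamate carrier (70.7% and 22.5%), and the transcription factor Hnf4a (65.9% and 19.7%). Genes of the list that the hepatocyte table did not give for Hepatocyte4 were Fbp1, fructose-1,6-bisphosphatase, listed for Hepatocyte3, and Gpt and Slc16a1, listed for Hepatocyte5. In the table of all cells Slc16a1, a carrier of lactate and pyruvate, was listed for Hepatocyte4 (53.7%, and 39.0% of all other cells). Pck2, Foxo1 and Ppargc1a were listed for no cluster of the hepatocyte table. The citrate cycle was represented by Sdha, a subunit of succinate dehydrogenase, which had the largest difference of all genes not listed for Hepatocyte5 (73.7% and 18.4%, chromosome 13, 74322254 to 74350280). Ogdh (55.9% and 12.1%) was also listed. Of 58 respiratory chain and ATP synthase genes in the table, 4 were listed for Hepatocyte4 (Sdha, Sdhc, Atp5a1 and Atp5md), or 6.90%, and 39 for Hepatocyte1. Most genes listed for Hepatocyte1 (160 of 170) had a lower share inside that cluster than outside it. Of 7 glycolysis and glycogen genes in the table, 4 were listed for Hepatocyte4 (57.1%, near the 54.7% for all genes), and 1 was in the table of all cells. The 4 were Gys2 (34.5% and 5.9%), Gbe1 (28% and 4.6%), Pgm1 (54.1% and 12.8%) and the glucose transporter Slc2a2 (49.3% and 6.4%).

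**Figure D4:**
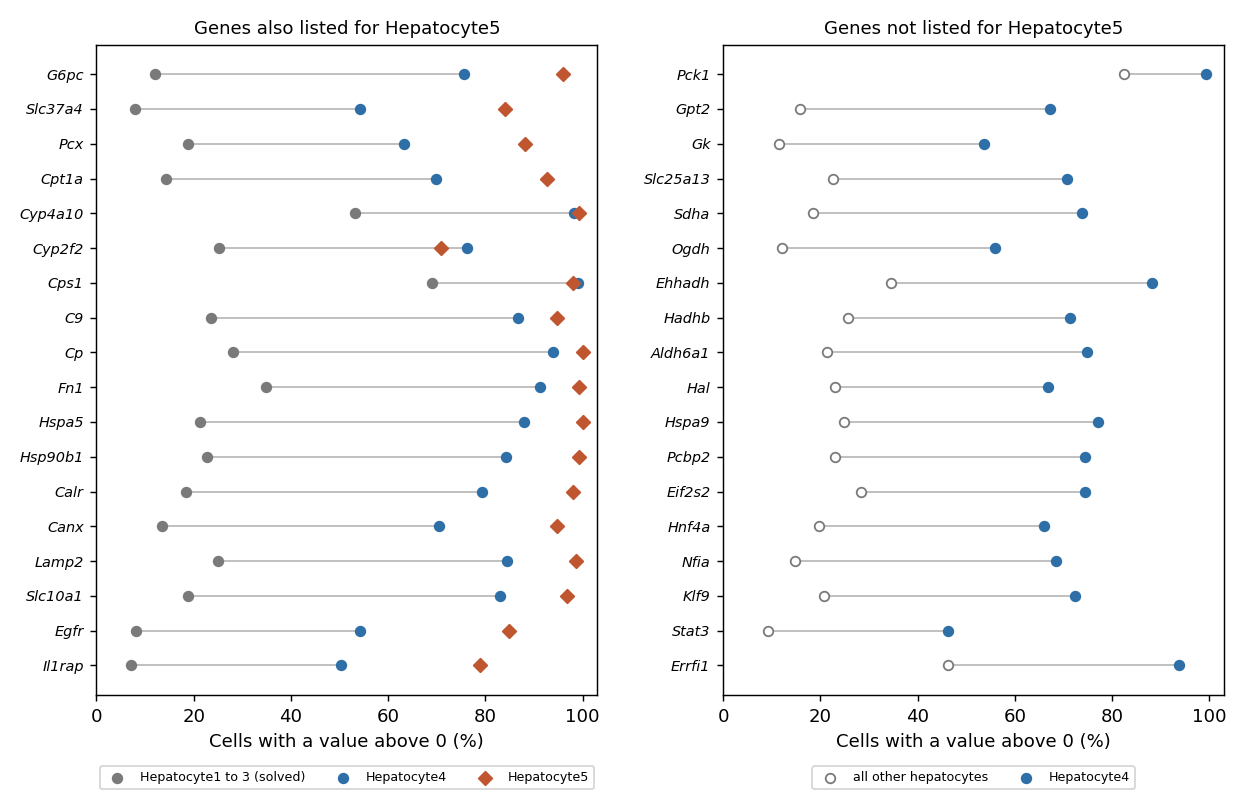
Detection (x axis, % of cells above 0) of 18 genes also listed for Hepatocyte5 (left) and 18 not listed for it (right), in Hepatocyte4 (blue), Hepatocyte5 (diamonds) and the reference (grey: Hepatocyte1 to Hepatocyte3, solved, at left, and all other hepatocytes at right). In each of the 36 genes Hepatocyte4 lies above the reference, while Pck1 starts from 82.5%; Cyp2f2 (70.9%) and Cps1 (98.0%) are the genes whose diamond lies below Hepatocyte4.

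Of the 34 genes on the insulin and fasting list, 15 were in the table. Of these 15, 14 were listed for Hepatocyte4 (93.3%), and the exception, Trib1, was listed for Hepatocyte5. Among the receptors, Insr, the insulin receptor, was found in 40.5% of Hepatocyte4 and 5.5% of the remaining hepatocytes, Gcgr, the glucagon receptor, in 35% and 5.5%, Egfr in 54.2% and 9.5%, and Ghr, the growth hormone receptor, in 56.1% and 19%. All of these receptors but Ghr were also listed for Hepatocyte5, in 72.2%, 60.9% and 84.8% of its cells. Irs2, the adaptor below the insulin receptor, was detected in 26.2% and 4.4% and was not listed for Hepatocyte5. Igfbp1, a secreted protein that insulin represses, had the largest difference of the list, at 67.5% and 15.9%, and was also listed for Hepatocyte5. The fasting factors Creb3l3 (70.3% and 25.8%), which resides in the ER membrane, and Klf15 (51.3% and 11.7%), a nuclear factor, fell on the shared and the unshared side. Place in the cell did not divide the whole list in this way. Lpin2 (56.1% and 17.0%) and Txnip (31.0% and 5.9%), of the cytosol or nucleus, were also listed for Hepatocyte5 (74.2% and 40.4% of its cells), while the secretory genes Ghr and Igf1 (82.3% and 41.4%) were not. Lpin1 (50.6% and 9.7%), Ppp1r3b (46.2% and 7.4%) and Ppp1r3c (26.7% and 3.9%) were not listed for Hepatocyte5.

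Of the 21 genes on the list of cytokine receptor and STAT genes, 6 were in the hepatocyte table, and all 6 were listed for Hepatocyte4. In the table of all cells, 8 were present and 4 were listed for Hepatocyte4. The receptor chains Il1rap (50.2% and 8.3%), Il1r1 (29.9% and 4.4%), Il6ra (33.4% and 4.5%) and Il6st (28.7% and 4.0%), for IL-1 and IL-6, were also listed for Hepatocyte5, in 47.7 to 78.8% of its cells. Stat3 (46.2% and 9.3%) and the kinase gene Jak1 (28.6% and 6.0%) were not. Il13ra1, Il4ra, Stat6 and Il1rl1 were not listed for a hepatocyte cluster in the hepatocyte table.

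Lipid metabolism, with 63 genes, was divided by enzyme location. Shared with Hepatocyte5 were ER enzymes that lengthen and desaturate fatty acids, such as Elovl2 (74.5% and 16.6%), Elovl5 (65.3% and 9.9%) and Fads2 (59.3% and 11.3%), and Mttp, which loads lipid onto apolipoprotein B (63.7% and 13.5%). Of the lipid genes with products in the secretory pathway, 19 of 24 were shared. Of 12 peroxisomal genes in this class, 1 was shared. The others included Ehhadh (88.2% and 34.5%), Crot (85.6% and 39.6%) and Hsd17b4 (79.3% and 35.1%). Mitochondrial oxidation genes fell on both sides, with Cpt1a (69.8% and 15.6%), which admits fatty acids to mitochondria, shared, and Hadhb (71.4% and 25.7%) not. Of 29 fatty acid oxidation genes in the table, 23 were listed for Hepatocyte4, a share of 79.3%. Ttpa, which binds vitamin E in the cytosol, was detected in 79.6% and 26.2%.

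Of 31 cytochrome P450 genes in the table, 7 were listed for Hepatocyte5 and not Hepatocyte4. The other 24 were listed for Hepatocyte4 (77.4%, with 54.7% for all genes of the table), and 23 of these also for Hepatocyte5. The leading ones were Cyp4v3 (66.5% and 11%), Cyp3a25 (93.3% and 38.3%), Cyp8b1 (75.9% and 23.9%), which sets the hydroxylation of bile acids, and Cyp2j5 (67.1% and 15.3%). Glucuronosyltransferases of the ER lumen were shared as well, with Ugt2b1 at 69.1% and 12.2% and Ugt2b5 at 76.3% and 21.4%. Near-identical copies within the Ugt2b, Ces and Cyp families make single values uncertain. Soluble enzymes of the same class were mostly not shared (1 of 17 was), including Aldh1a1 (85.1% and 36.3%), Gclc, the first enzyme of glutathione synthesis (63.8% and 16.4%), and Sod1 (88.4% and 44.6%).

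Amino acid metabolism had 39 genes, 11 of them shared. The mitochondrial enzymes Aass, of lysine breakdown (78.5% and 22.5%), Gldc, of glycine cleavage (64.7% and 13.1%), and Cps1, of the urea cycle (99.0% and 69.5%), were shared. Aldh6a1, of valine breakdown (74.9% and 21.4%), Hal, of histidine breakdown (66.7% and 23.0%), and Cth, of cysteine synthesis (80.5% and 38.8%), were not. Arg1, the last enzyme of the urea cycle, was detected in 94.6% and 66.3% and was listed for Hepatocyte3 as well, and Ass1 was listed for Hepatocyte2 and not for Hepatocyte4. Of the 30 genes on the periportal list, 25 were in the table and 19 were listed for Hepatocyte4 (76.0% of those in the table), with a median difference of 40.4 points. Of the 30 on the pericentral list, 14 were in the table and 10 were listed (71.4%), with a median difference of 28.8 points. The lists were not compared by a test. Pericentral examples were Aldh1a1, Por, the reductase that serves P450 enzymes (70.5% and 23.5%), Csad (58.7% and 17.8%) and Cyp2c29 (49.5% and 16.3%).

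Transporters and surface proteins were mostly shared. Of 66 membrane transport genes, 46 of 49 for the plasma membrane or other secretory membranes and 4 of 14 for mitochondrial membranes were also listed for Hepatocyte5. Slc10a1, the bile acid importer, was detected in 83.1% and 20.3%, Slc7a2, a cationic amino acid carrier, in 80.9% and 20.0%, Slc38a4 in 84.5% and 28.4% and Slco1b2 in 91.7% and 36.0%. Of 18 metal-handling genes in the table, 7 were listed for Hepatocyte4 (38.9%, below the 54.7% for all genes of the table). Hepatocyte1 and Hepatocyte3 each listed 4, and 6 were listed for Hepatocyte5 and not Hepatocyte4. Those listed for Hepatocyte4 included the iron and zinc genes Tfr2 (60.5% and 10.7%), Slc40a1, the iron exporter ferroportin (44.4% and 6.9%), and Slc39a14 (41.4% and 4.6%). Surface receptors and adhesion molecules numbered 52, of which 43 were shared, including Aplp2 (69.1% and 10.3%), the MHC class I genes H2-K1 (82.9% and 24.6%) and H2-D1 (76.8% and 29.8%), and the syndecan Sdc4 (84.8% and 35.1%). Of 36 lysosomal and endosomal genes, 29 were shared, including Lamp2 (84.5% and 26.2%), the protease Ctsb (69.5% and 14.3%) and the lipase Lipa (66.9% and 12.3%). The 7 that were not shared included Sqstm1 (55.3% and 15.9%), Nbr1 (39.8% and 8.6%) and Ncoa4 (47.6% and 10.5%), which are autophagy receptors of the cytosol.

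Nuclear and cytosolic regulators made up much of what Hepatocyte5 did not list. Of 68 genes for transcription and chromatin, 50 were not shared, led by Nfia (68.5% and 14.7%), Klf9, a glucocorticoid-induced factor (72.4% and 20.8%), and Hnf4a. Cebpa (48.8% and 11.8%), Prox1 (46.9% and 9.0%) and the clock-related factors Rora (50.1% and 10.6%), Hlf (28.7% and 5.1%) and Clock (26.2% and 5.7%) were on this side too. The shared ones included Zbtb20 (58.1% and 10.8%), Xbp1, Ppara, the fatty acid receptor of fasting (36.1% and 8.3%), and Neat1, a nuclear RNA detected in 47.0% of Hepatocyte4, 94.7% of Hepatocyte5 and 6.8% of hepatocytes outside Hepatocyte4. Of 70 genes for RNA processing and translation, 57 were not shared, among them Pcbp2 (74.4% and 22.9%), Ddx3x (55.3% and 8.6%) and the initiation factor gene Eif2s2 (74.4% and 28.3%). The 13 shared ones were led by Zfp36l1 (82.3% and 22.9%), which binds AU-rich messages, and held the splicing factors Srsf2 (46.2% and 8.6%) and Srsf5 (45.7% and 8.9%). Intracellular signalling had 57 genes, 51 of them not shared, such as Errfi1 (93.7% and 46.3%).

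Of 55 genes for ubiquitin, proteolysis and chaperones outside the ER, 44 were not shared, among them the mitochondrial chaperones Hspa9 (77.0% and 24.8%) and Hspd1 (79.3% and 37.5%). Unlike these HSP70 and HSP60 proteins of mitochondria, the ER chaperones Hspa5 and Hsp90b1 were shared. Of the 10 immediate early and heat shock genes in the table, which can respond to tissue handling, 7 were listed (70%), with Egr1 at 38.3% and 5.6%, Zfp36 at 51.6% and 11.7% and Btg1 at 60.6% and 15.1%, and their part in the cluster was not tested. Cytoskeletal genes numbered 26, with 18 not shared. The last class, of 9 genes for mitochondrial shape, cofactors and other enzymes, had 0 shared genes and included the heme synthesis enzymes Cpox (69.5% and 17.2%) and Fech (45.2% and 9.2%). The 22 unassigned genes had a median difference of 29.1 points. Cytosolic ribosomal protein genes and mitochondrially encoded genes were listed for no cluster in either table, other cell types included. Their absence is therefore not a result about the hepatocyte clusters.

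The median longest transcript was 3431 bases for Hepatocyte4, compared with 2679 for all protein-coding genes and 918, 1240 and 1364 for the genes of Hepatocyte1, Hepatocyte2 and Hepatocyte3. Long transcripts were not particular to Hepatocyte4, since the median was 3826 bases for genes listed for Hepatocyte5 and not Hepatocyte4 and 3119.5 for all genes of the hepatocyte table. It was 3348 bases for genes shared with Hepatocyte5 and 3471 for those not shared.

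Against all other cells, 443 genes were listed for Hepatocyte4, of which 350 (79%) were also listed for Hepatocyte5, where Hepatocyte5 listed 24.7% of all genes of that table. The deposited shares of the same Hepatocyte4 cells differed between the tables: for 370 of the 385 genes in both, the share was higher in the table of all cells, by a median of 13.9 points over all 385 and by up to 51.5 points. G6pc differed little inside the cluster (75.5% and 75.6%), as did Hspa5 (88.0% in both). Outside the cluster, where the 2 tables count different cells, the share rose from 13.6% to 23.2% for G6pc, from 22.6% to 43.5% for Hspa5 and from 29.3% to 50.7% for Cp, so the differences of these markers were smaller in the table of all cells. Gcgr was detected in 35% of Hepatocyte4 cells in the hepatocyte table and 75.4% in the table of all cells. The tables thus do not hold the same shares, and they were not combined; why they differ was not tested. The contrast by place of the protein was smaller but of the same direction there: 91.9% of secretory genes and 38.5% of those for the cytosol or nucleus in both tables were also listed for Hepatocyte5, and a hydrophobic stretch was found in 76.6% of genes listed there for both clusters and 47.3% of those listed for Hepatocyte4 and not Hepatocyte5. The 58 genes listed for Hepatocyte4 in that table alone were led by Nipal1 (69.7% of Hepatocyte4 and 18.4% of all other cells), Timd2 (68.9% and 24.0%) and Gaa, lysosomal acid glucosidase (65.8% and 22.9%).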

How the data were processed

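Reads of both libraries (10x Chromium 3′ v3.1) were counted by the authors with Cell Ranger on mm10, filtered on genes per cell (hepatocytes with very many genes were removed as possible doublets) and mitochondrial share, scaled per cell, log-transformed and clustered with Seurat. The 2 deposited marker tables give, as fractions made by the authors, how many cells had any value above 0, once for a cluster and once for the cells outside it, printed here in percent. The authors' fold changes, p-values and adjusted p-values, 3 columns per table, hold their own comparisons and were not used. Cluster sizes were solved by a least squares fit in which all rows of a gene had to give 1 overall share (checked on simulated data). Positions, lengths and translations were taken from GENCODE M21 (GRCm38), and 875 of 880 names matched. Promoter windows were from RefSeq. Members and lists were chosen with earlier results of these data known. Named genes were the given markers, listed members of the gluconeogenesis, fasting and cytokine lists, the largest and smallest differences and the leading 4 of each list. Further genes, named as examples of a function or a motif, were chosen after their values were seen. Shares in non-hepatocytes were not solved, because the tables give different shares for the same cluster. Python 3.11.15 with NumPy 2.4.6 and pandas 2.3.3 was used. The tables hold neither cell numbers nor depth, and no counting interval was computed. Some listed genes are not reported here.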

Additional observations from a re-analysis of the deposited data

How the results depend on the processing

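No paired analysis was possible because each condition has 1 library and the tables pool both. For the same reason no replicate could be left out. The estimated share of Hepatocyte4 stayed at 18.1% under each of 3 other fits. Counting genes also listed in the table of all cells left 385 genes for Hepatocyte4 and 73 that were not listed for Hepatocyte5, and taking both clusters from that table, a comparison chosen after seeing the data, left 93. The share of Hepatocyte4 genes not listed for Hepatocyte5 was then 21% in place of 50.9%, and the cause was not tested. The median transcript length of 3431 bases became 1473 when coding length was taken. Under the stricter hydropathy limit of 1.8, chosen after seeing the data, 65.7% of shared and 15.5% of unshared genes kept a hydrophobic stretch. Requiring a difference of at least 10 points left the values within 1.5 times of those reported for 37 of 37 results. That setting kept 873 of the 880 genes, so the values could hardly move under it. Taking the table of all cells moved 13 of 46 results by over 1.5 times, among them the genes listed for insulin and fasting (14 to 8), fatty acid oxidation (23 to 13), urea and amino acid metabolism (26 to 10), the clock (3 to 0) and immediate early and heat shock genes (7 to 3). The part of sequencing depth in any of these shares was not tested.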
